A study of Homo sapiens with 5 samples.

Results

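The GALNT genes encode the polypeptide N-acetylgalactosaminyltransferases, the enzymes that begin mucin-type O-glycosylation. Described here are 10 of them, from ribosome footprint counts of HAP1 cells, a human cell line derived from chronic myeloid leukaemia cells. The members were taken by symbol, namely GALNT1, GALNT2, GALNT3, GALNT4, GALNT5, GALNT6, GALNT7, GALNT10, GALNT11 and GALNT12, and make up 10 of the 13638 rows of the count table. The family was chosen by the footprint counts of GALNT5, which were far higher in ZCCHC4 knockout than in wild-type libraries. The difference of GALNT5 is therefore given as a description without a test, and its paralogs are read beside it. The 5 libraries comprised 2 from wild-type HAP1 cells and 3 from HAP1 cells with a knockout of ZCCHC4, the methyltransferase that the series title assigns to 28S ribosomal RNA. Every sample title, of either genotype, calls the cells haploid. No drug, time course or other allele is named for either group, and the labels do not say how many knockout clones were used or whether replicates were separate cultures.

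As background, a GALNT enzyme sits in the Golgi membrane and moves N-acetylgalactosamine (GalNAc) from UDP-GalNAc to a serine or threonine of a passing protein. The family is large because its members differ in the peptides they accept. Some work on bare peptides and others prefer stretches that already carry a GalNAc. Most have a catalytic domain followed by a lectin domain that binds GalNAc. The first sugar is then extended, commonly by the core 1 enzyme C1GALT1 with its chaperone C1GALT1C1, and capped with sialic acid.

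The coding sequences of the members were compared first, because a footprint of 28 to 32 bases can be assigned to a gene only where paralogs differ. GALNT5 had none of its 2793 coding words of 28 bases in a transcript of any other gene of GENCODE release 29. The same count of 0 held for GALNT2, GALNT3, GALNT6, GALNT7, GALNT10 and GALNT12. GALNT1 shared 8 of 1650 words with GALNT13, and GALNT11 shared 8 of 1797 with another gene. GALNT4, whose transcript has 1 exon, was the exception, since 1599 of its 1707 words (93.7%) also occur in the read-through transcript POC1B-GALNT4, so reads of these could be split. Over the 45 pairs of members the longest identical run of coding bases was between 11 and 20 bases, all shorter than a footprint. The run of GALNT5 with GALNT10 was among those of 20 bases. The stretch of 62 bases around it is shown for GALNT5 and for 5 paralogs, read from GENCODE release 29 on GRCh38, with capitals for bases that differ from GALNT5.
GALNT5, coding bases 2089 to 2150: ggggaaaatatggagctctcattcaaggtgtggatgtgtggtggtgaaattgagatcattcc
GALNT10, coding bases 1030 to 1091: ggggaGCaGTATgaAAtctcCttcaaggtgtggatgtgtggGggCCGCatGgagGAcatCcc
GALNT1, coding bases 952 to 1013: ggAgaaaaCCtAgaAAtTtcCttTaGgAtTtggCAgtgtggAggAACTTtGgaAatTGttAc
GALNT2, coding bases 997 to 1058: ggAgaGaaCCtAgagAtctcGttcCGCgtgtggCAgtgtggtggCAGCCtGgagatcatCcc
GALNT6, coding bases 1141 to 1202: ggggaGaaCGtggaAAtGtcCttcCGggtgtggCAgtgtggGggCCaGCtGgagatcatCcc
GALNT3, coding bases 1165 to 1226: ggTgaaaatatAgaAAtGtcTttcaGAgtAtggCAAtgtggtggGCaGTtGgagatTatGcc
In this window GALNT10 differed from GALNT5 at 18 bases, GALNT6 also at 18, GALNT2 and GALNT3 at 19 and GALNT1 at 25.

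The wild-type libraries held 4887380 and 5302160 counts and the knockout libraries between 16940732 and 31557573, so depth and genotype moved together. Levels are given as CPM, the count divided by the TMM-scaled library size and expressed per 1e6, where 1 count was worth 0.172 and 0.187 CPM in wild type and between 0.0339 and 0.0619 CPM in the knockout. The wild-type libraries differed by little more than sampling noise (chi-square divided by its degrees of freedom, 1.14), whereas knockout replicate 2 stood apart from knockout replicates 1 and 3 (27.7 and 24.6, against 2.97 between those). Pairs across genotypes gave 89.7 to 106. Footprints of ZCCHC4 itself averaged 14.6 ± 1.97 CPM over the wild-type libraries (SD, n = 2) against 4.08 ± 0.81 over the knockout libraries (SD, n = 3), a log2 fold change of -1.82 ± 0.20 (edgeR adjusted p = 7.27e-05). Of 12 blood cell markers, 7 had a row (PTPRC, SPI1, GATA1, MPO and ITGAM are not analysed here), with a summed level of 36.0 and 37.4 CPM in wild type and 36.5 to 40.8 CPM in the knockout. Of these, GATA2 rose from 15.9 to 30.8 CPM, while KIT fell from 11.3 to 1.64 and TAL1 from 8.54 to 5.43, and the myeloid marker CD33 had 0 counts in wild type and 1 in each knockout library. A list of 7 mesenchymal markers summed to 436 and 451 CPM in wild type and 728 to 769 CPM in the knockout, and 5 epithelial markers of 7 with a row to 196 and 208 against 141 to 164 CPM, with at most 1 count of CDH1 or KRT19 in any library. The mesenchymal sum followed VIM, which rose from 132 to 511 CPM, while FN1 fell from 164 to 68.6 and COL1A1 from 17.1 to 9.74. CDH2 went from 130 to 153 CPM. Among the epithelial markers ESRP1 fell from 52.3 to 6.29 CPM and EPCAM rose from 1.35 to 4.72 CPM. KRT18, the largest part of the epithelial sum, was at 148 CPM in wild type and 138 CPM in the knockout. The part of these differences in the GALNT values was not tested.

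The wild-type order of levels was led by GALNT2, GALNT1 and GALNT7. On the scale of CPM per kilobase of coding sequence, which allows genes to be compared, GALNT2 stood at 50.0 ± 1.13, GALNT1 at 25.4 ± 1.45 and GALNT7 at 19.0 ± 0.163 (SD, n = 2). GALNT6 followed at 7.81 ± 0.98, GALNT10 at 5.14 ± 0.694, GALNT11 at 4.34 ± 0.382 and GALNT12 at 4.16 ± 0.131. GALNT5 was eighth of the 10 at 1.34 ± 0.0748, with only GALNT3 at 0.424 and GALNT4 at 0.0497 below it. Every neighbouring pair in this order was separated in both libraries except GALNT11 and GALNT12, whose libraries overlapped.

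In the knockout libraries GALNT5 headed the order. It stood at 54.4 ± 0.388 CPM per coding kilobase (SD, n = 3), above GALNT2 at 39.1 ± 1.24, GALNT1 at 33.4 ± 2.22 and GALNT7 at 16.6 ± 0.299. The rest lay far lower, from GALNT10 at 3.90 ± 0.248 to GALNT3 at 0.0292 ± 0.0087. GALNT10 overlapped with GALNT11, and GALNT6 with GALNT12, while the other neighbours in the order were separate. GALNT2, GALNT1 and GALNT7 kept their order among themselves in both genotypes.

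**Figure D1:**
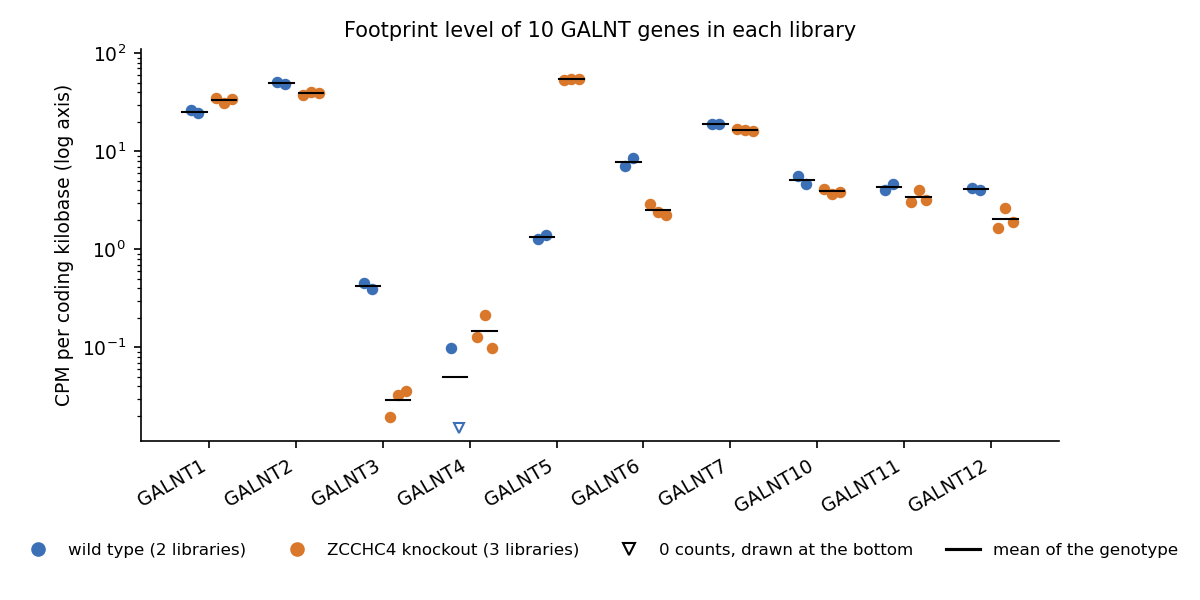
Footprint level of the 10 members on a log axis in CPM per coding kilobase, with a point for each of the 2 wild-type and 3 knockout libraries and a bar at each mean. GALNT5 lies near 1.34 in wild type and near 54.4 in the knockout, whereas GALNT3 lies lower in every knockout library.

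GALNT5, a member with an unusually long stem between its membrane anchor and its catalytic domain, was low in wild type and abundant in the knockout. The gene (ENST00000259056, GRCh38 chromosome 2, 157257598 to 157314211, plus strand, 10 exons) had 21 counts in each wild-type library and 4153, 2485 and 4556 counts in the knockout libraries. These were 3.62 and 3.92 CPM in wild type and 152, 154 and 154 CPM in the knockout. The genotypes were widely separated and the knockout libraries were nearly equal, including replicate 2. The means of 3.77 ± 0.211 CPM for wild type (SD, n = 2) and 153 ± 1.10 for the knockout (SD, n = 3) correspond to a 40.7-fold difference, or 5.35 ± 0.13 on the log2 scale (SE). The exact 95% interval of the ratio of counts was 30.1 to 56.6, which covers counting error only and is set mainly by the 42 wild-type counts. Of the 11205 genes that passed the count filter, GALNT5 ranked 52nd from the largest rise, as a description.

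The make-up of the family changed accordingly. GALNT5 took 1.14% ± 0.0822 of the summed CPM per coding kilobase of the 10 members in wild type (SD, n = 2) and 35.0% ± 0.345 in the knockout (SD, n = 3). GALNT2 went from 42.5% to 25.2% and GALNT7 from 16.2% to 10.7%, while GALNT1 was at 21.6% and 21.5%. GALNT6 went from 6.65% to 1.61%. Shares depend on each other, so a larger share of GALNT5 lowers the others whatever their own level.

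**Figure D2:**
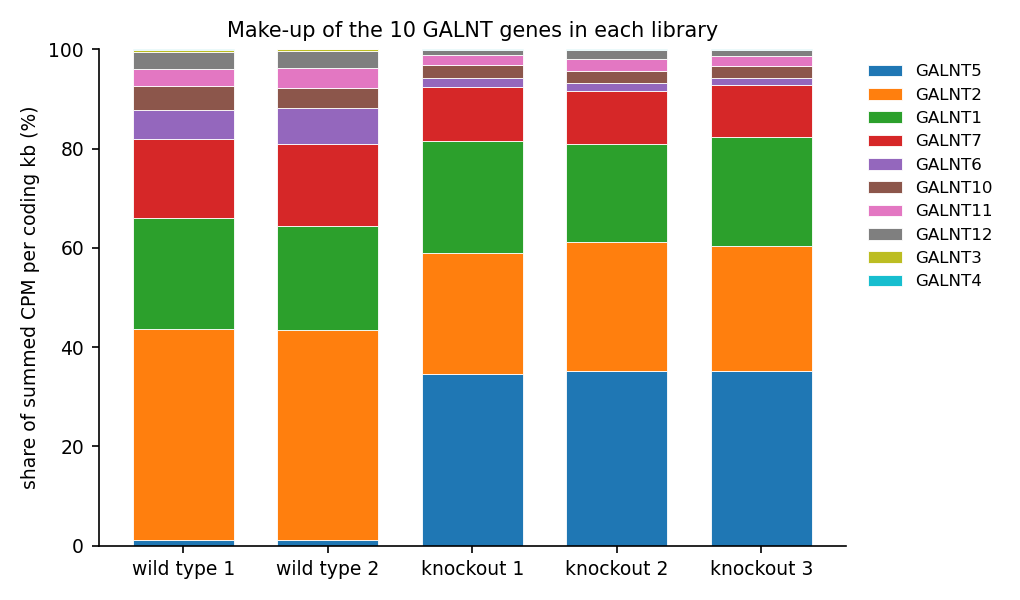
Share of each member in the summed CPM per coding kilobase of the 10 GALNT genes, in percent, with 1 stacked bar for each library. GALNT5 is a thin band of 1.14% on average in wild type and the largest band, 35.0%, in the knockout.

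Summed over the 10 members, the level was 119 and 116 CPM per coding kilobase for wild type, against 156, 156 and 155 for the knockout, 1.32 times higher on the means. Without GALNT5 the order of the genotypes turned. The other 9 members summed to 118 and 115 for wild type, against 102, 101 and 100.4 for the knockout, 0.869 times the wild-type mean. Neither sum was tested, and the size of both differences depends on the scaling by TMM.

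Among the 9 paralogs, 1 rose, 3 fell and 3 did not pass, while 2 had too few counts to be tested. Passing means an adjusted p under 0.05 in edgeR's quasi-likelihood test, adjusted by Benjamini-Hochberg over all 11205 genes tested. The background was high, since 60.0% of all genes tested passed (30.2% higher and 29.8% lower), and the 4 calls among 7 tested paralogs (57.1%) are near it. In each of the 7 the knockout libraries lay wholly above or wholly below the wild-type ones, where the share over all genes tested was 76.4%. Without wild-type replicate 1, 2 of the 7 paralogs passed, beside 41.4% of all genes in that fit, and without knockout replicate 2 all 7 did, beside 73.3%. The median log2 fold change of the 7 was -0.36, beside 0.02 for all genes. When library totals replaced the scaling by TMM, that median of all genes moved to -0.20 and the calls to 2391 higher and 4564 lower, with 0 paralogs higher and 6 lower, so small changes are read relative to that shift. Because the counts are footprints, a difference in mRNA amount and a difference in ribosome occupancy cannot be told apart, nor can fewer expressing cells and less RNA per cell.

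**Figure D3:**
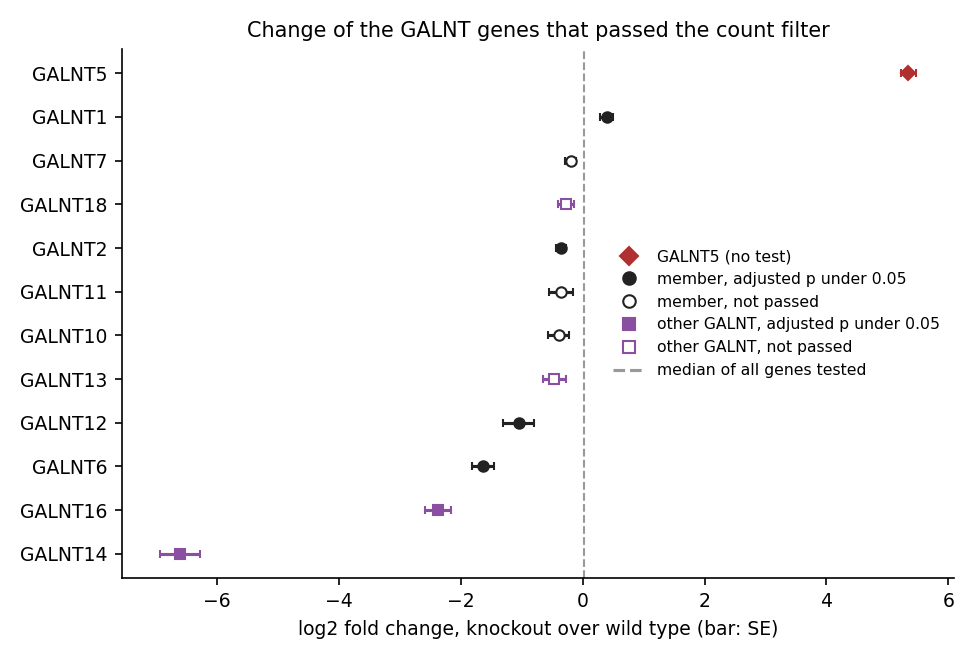
Log2 fold change of knockout over wild type for the 12 GALNT genes that passed the count filter, with bars for the SE. GALNT5 lies at 5.35 and GALNT1 at 0.39, while the other 10 lie below 0, down to GALNT14 at -6.61, filled circles and squares marking genes past the test. GALNT14 passed the filter through wild type alone, so its filled square is not read as a test.

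GALNT1 and GALNT2, which act on bare peptides and are found in most tissues, moved in opposite directions by small amounts. GALNT1 (chromosome 18, 35654560 to 35711834) had 44.3 and 40.9 CPM in wild type and 59.1, 51.8 and 56.9 CPM in the knockout. All knockout libraries were above both wild-type libraries, a 1.31-fold rise of 0.39 ± 0.10 on the log2 scale (SE, edgeR adjusted p = 0.00901). It did not pass when wild-type replicate 2 was left out (0.34, adjusted p = 0.103), with library totals (0.17, adjusted p = 0.154), with counts thinned to the smallest library (0.24, adjusted p = 0.268) and with closely alike libraries summed (0.37, adjusted p = 0.199). GALNT2 (chromosome 1, 230067209 to 230282124) had 86.9 and 84.2 CPM in wild type and 65.0, 69.3 and 66.8 CPM in the knockout. Here all knockout libraries were below both wild-type libraries, a log2 fold change of -0.35 ± 0.08 (edgeR adjusted p = 0.00537). It did not pass when wild-type replicate 1 was left out (-0.33, adjusted p = 0.0675) and with closely alike libraries summed (-0.33, adjusted p = 0.231).

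GALNT3 and GALNT6, which are close relatives, were both lower in the knockout libraries. GALNT3 is known for glycosylating the phosphate hormone FGF23 and so shielding it from cleavage. GALNT6 (chromosome 12, 51353753 to 51391409, minus strand) had 13.3 and 15.9 CPM in wild type and 5.39, 4.46 and 4.17 CPM in the knockout. It fell 3.12-fold, with a log2 fold change of -1.63 ± 0.18 (SE, edgeR adjusted p = 7.26e-05), and the call held under every alternative tried (-1.85 to -1.33). GALNT3 (chromosome 2, 165747591 to 165794682, minus strand) had 5 and 4 wild-type counts against 1, 1 and 2 in the far deeper knockout libraries, and was not tested. In CPM these were 0.862 and 0.747 against 0.0367, 0.0619 and 0.0677, without overlap. The ratio of summed counts was 14.7-fold lower in the knockout, with an exact 95% interval of 4.11 to 65.4.

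GALNT4 and GALNT12, another related pair, gave a fall and a level too low to read. GALNT12 (chromosome 9, 98807699 to 98850081) had 7.42 and 7.09 CPM in wild type and 2.86, 4.65 and 3.28 CPM in the knockout, with knockout replicate 2 the highest of its group. It fell 2.02-fold, a log2 fold change of -1.05 ± 0.25 (SE, edgeR adjusted p = 0.00611). It did not pass when wild-type replicate 1 was left out (-1.01, adjusted p = 0.0635) and with counts thinned to the smallest library (-0.98, adjusted p = 0.278). GALNT4 (chromosome 12, 89519408 to 89524806, minus strand) had wild-type counts of 1 and 0, against 6, 6 and 5 for the knockout libraries. Its ratio of counts, 2.60 higher in the knockout, had an exact 95% interval of 0.407 to 109, so no difference was detectable at this depth. The read-through row POC1B-GALNT4 had 2 counts in all, both in knockout replicate 3, which were not used.

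GALNT7, GALNT10 and GALNT11 did not pass the test. GALNT7 and GALNT10 prefer peptides that already carry a GalNAc, and GALNT11 acts on NOTCH1. GALNT7 (chromosome 4, 173168753 to 173323967) had 37.3 and 37.7 CPM in wild type and 33.2, 32.7 and 32.1 CPM in the knockout, a difference of -0.20 ± 0.10 on the log2 scale (SE, edgeR adjusted p = 0.100). GALNT10 (chromosome 5, 154190730 to 154420984) had 10.2 and 8.40 against 7.55, 6.69 and 6.91 CPM, or -0.40 ± 0.17 (edgeR adjusted p = 0.0717). GALNT11 (chromosome 7, 152025693 to 152122347) had 7.42 and 8.40 against 5.61, 7.31 and 5.76 CPM, or -0.36 ± 0.20 (edgeR adjusted p = 0.1499). In each of these genes every knockout library lay below both wild-type libraries, by the narrowest margin in GALNT11. Libraries of the genotypes did not overlap in 76.4% of all genes tested. Each passed without knockout replicate 2, with adjusted p values of 0.0363, 0.0440 and 0.0177, and with library totals (0.00442, 0.01198 and 0.0367).

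Another 6 GALNT genes had a row in the table. GALNT14 (chromosome 2, 30910467 to 31138726, minus strand) was on in wild type and near 0 in the knockout, the reverse of GALNT5. It had 115 and 87 counts, or 19.8 and 16.2 CPM, in wild type and 2, 2 and 9 counts, or 0.0733, 0.124 and 0.305 CPM, in the knockout. The ratio of counts was 102-fold lower in the knockout, with an exact 95% interval of 58.1 to 194. GALNT14 entered the test through wild type alone, where it was high, so its fitted log2 fold change of -6.61 ± 0.33 (SE) is given as a description with no test. GALNT16, which like GALNT14 is a close relative of GALNT2, averaged 14.9 ± 1.60 CPM in wild type (SD, n = 2) and, having fallen 5.08-fold, 2.94 ± 0.666 in the knockout (SD, n = 3; log2 -2.38 ± 0.21, edgeR adjusted p = 1.96e-05).

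The remaining GALNT rows gave smaller or unreadable differences. GALNT13, the closest relative of GALNT1, had 10.0 ± 0.199 CPM in wild type and 7.19 ± 1.23 CPM in the knockout (-0.46 ± 0.20, edgeR adjusted p = 0.0676). It passed without knockout replicate 2 (-0.35, edgeR adjusted p = 0.0460) and without knockout replicate 3 (-0.58, adjusted p = 0.0495). GALNT13 also passed with upper quartile scaling (edgeR adjusted p = 0.0401), with library totals (0.0131) and at a mean count of at least 50 (0.0425). GALNT18 had 20.8 ± 1.17 and 17.2 ± 1.49 CPM (-0.28 ± 0.13, edgeR adjusted p = 0.0964) and passed without knockout replicate 2 (-0.34, adjusted p = 0.00614). GALNT18 also passed with library totals (edgeR adjusted p = 0.0112) and at a mean count of at least 50 (0.0461). GALNT8 had 6 wild-type and 4 knockout counts, and GALNTL6 had 3 and 1. Of the 1884 coding words of 28 bases in GALNT8, 1216 (64.5%) also occur in another gene, so its reads could be split. Over all 16 GALNT rows the summed level without GALNT5 was 154 ± 2.10 CPM per coding kilobase in wild type (SD, n = 2) and 117 ± 0.888 in the knockout (SD, n = 3). With GALNT5 the sum was 155 ± 2.03 and 171 ± 0.639. These sums rest on TMM factors of 1.09 and 1.10 in wild type and 0.935 to 0.953 in the knockout. A difference as small as 155 against 171 therefore depends on the scaling.

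The gene next to GALNT5 on chromosome 2 was also higher in the knockout, while those farther off were not alike. ERMN, which encodes an actin-binding protein of oligodendrocytes, lies on the other strand with its transcript end 4413 bases beyond that of GALNT5, so the transcripts counted do not overlap. ERMN had 2.76 and 2.24 CPM in wild type and 41.8, 32.0 and 40.4 CPM in the knockout, a log2 fold change of 3.92 ± 0.23 (SE, edgeR adjusted p = 1.82e-06). GPD2, a mitochondrial glycerol phosphate dehydrogenase before GALNT5, was at 0.31 ± 0.09 (adjusted p = 0.0119), and it did not pass when the library left out was wild-type replicate 1 (0.33, adjusted p = 0.0815), wild-type replicate 2 (0.29, adjusted p = 0.106) or knockout replicate 1 (0.26, adjusted p = 0.0538) and in 4 further alternatives, with library totals at 0.09 (adjusted p = 0.359). ACVR1C, a receptor of the activin family with a start site 0.371 Mb away, had 18 and 10 wild-type counts against 2, 3 and 9 for the knockout libraries. Its ratio of counts was 13.1-fold lower in the knockout (exact 95% interval 6.66 to 26.9), and its test is not read because it passed the count filter through wild type alone. CYTIP, between ERMN and ACVR1C, had 1 count in all, and the potassium channel gene KCNJ3 had no wild-type count and 25 knockout counts. Taking 3 counts as the upper limit for the wild-type group, knockout KCNJ3 was higher by at least 1.27-fold (not tested), but the exact 95% interval of its ratio began at 0.962.

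**Figure D4:**
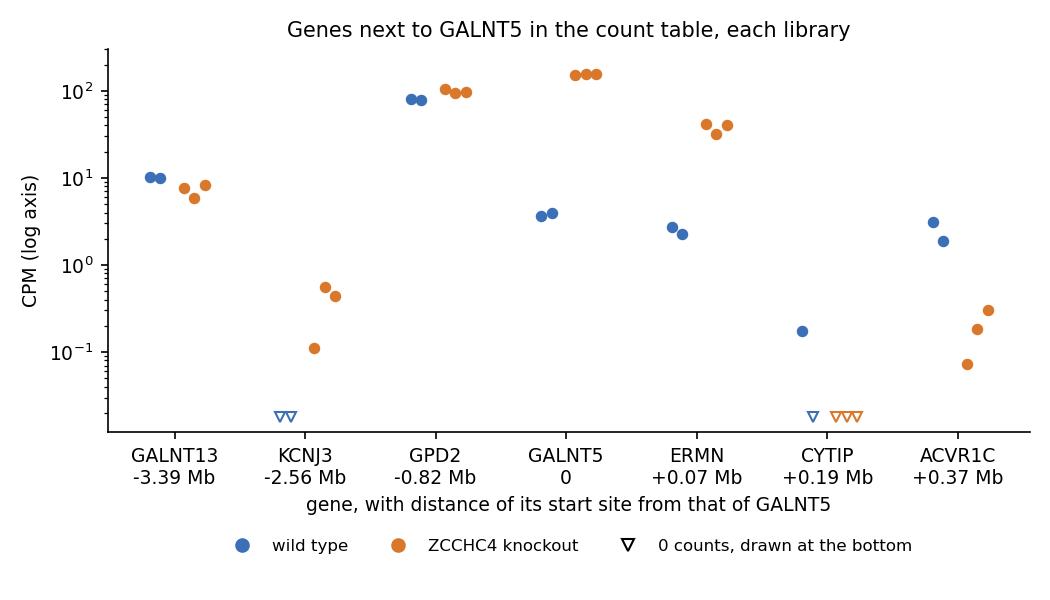
CPM on a log axis of GALNT5 and the 3 nearest rows of the table on each side, with a point for each library and the distance between start sites in Mb. GALNT5 and ERMN are high in the knockout, GPD2 and GALNT13 differ little between the genotypes, and ACVR1C is lower in the knockout.

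The genes whose pattern over the 5 libraries was nearest to that of GALNT5 were all near 0 in wild type. Nearness was the Euclidean distance between log2 CPM values (prior count 2) centred on each gene's mean. Over 2 groups this mostly reflects the size of the difference, which the prior count shrinks where counts are few. MYOF, a membrane repair protein, was the nearest at 0.202, with 2 wild-type and 936 knockout counts. TNMD, a tendon glycoprotein, was at 0.339 with 11 and 2760 counts. The fructose transporter SLC2A5 (distance 0.446), the matrix protein THBS4 (0.644) and the folate receptor FOLR1 (0.679) had no wild-type count. With the same upper limit of 3 wild-type counts, they were at least 21-fold, 12.4-fold and 11.0-fold higher in the knockout, while the exact 95% intervals of their ratios began at 17.0, 9.99 and 8.83. Fitted log2 fold changes were 9.60 for SLC2A5, 8.83 for THBS4, 8.64 for FOLR1 and 6.12 for MYOF. TNMD was at 5.23, beside 5.35 for GALNT5. SLC2A5, THBS4, FOLR1 and MYOF passed the count filter through the knockout alone, so their tests are not read.

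Enzymes that act after the GALNT step included 4 that rose. Of 15 core and capping enzymes, 12 had a row and 7 were tested, of which 4 rose, 1 fell and 2 did not pass (71.4% called, beside 60.0% of all genes), with a median log2 fold change of 0.71. With library totals 2 were higher and 2 lower, beside 2391 higher and 4564 lower of all 11205 genes. The median in that fit was 0.48, beside -0.20 for all genes. The median of the list depended on the count filter. With no filter on low counts, 4 of the 12 rows were higher and 3 lower, beside 3675 and 3381 of all 13638 rows. The median was then -0.02, beside 0.06 for all genes. C1GALT1C1, the chaperone of the core 1 enzyme, had 55.7 and 51.2 CPM in wild type and 108, 89.5 and 103 CPM in the knockout (0.91 ± 0.11, SE, edgeR adjusted p = 1.20e-04). C1GALT1, which adds galactose to make core 1, had 8.97 and 8.03 against 15.7, 11.4 and 14.3 CPM (0.71 ± 0.19, edgeR adjusted p = 0.0117). GCNT1, which branches core 1 into core 2, had 2.59 and 2.24 against 9.75, 7.99 and 9.35 CPM (1.91 ± 0.23, edgeR adjusted p = 1.23e-04). All knockout libraries were above both wild-type libraries in each of these genes, where 76.4% of all genes tested had no overlap in either direction.

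The sialyltransferases, which cap the chain, gave values in both directions. ST6GALNAC4 rose from a wild-type mean of 3.58 ± 0.307 CPM (SD, n = 2) to 6.93 ± 2.02 (SD, n = 3; log2 0.92 ± 0.32, edgeR adjusted p = 0.0341), with knockout replicate 2 the highest. ST6GALNAC2 averaged 2.49 ± 0.621 CPM in wild type and 0.278 ± 0.158 in the knockout, with 17 and 11 wild-type counts against 12, 2 and 8. It is the gene counted as falling in this list, but it passed the count filter through wild type alone and its call was lost with thinned counts (edgeR adjusted p = 0.0936), so its test is not read. ST6GALNAC3 and ST6GALNAC5 had 3 and 5 wild-type counts and no knockout count, and were not tested. Without wild-type replicate 1 the calls of C1GALT1 and ST6GALNAC4 were lost, as they were without wild-type replicate 2. In each case fewer genes of the list passed, as fewer of all genes did. C1GALT1 and ST6GALNAC4 also did not pass with library totals (edgeR adjusted p = 0.0518 and 0.0967) and with thinned counts (0.0758 and 0.262). Nor did C1GALT1 with summed libraries, or ST6GALNAC4 with upper quartile scaling (0.0549) and at a mean count of at least 50 (0.0529).

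Genes that make and carry the sugar donors were mixed. Of 16 tested, 5 rose, 2 fell and 9 did not pass (43.8% called, beside 60.0% of all genes, median 0.11). GFPT1, which controls entry into the hexosamine pathway that leads to UDP-GalNAc, fell from a wild-type mean of 667 ± 3.78 CPM (SD, n = 2) to 244 ± 2.23 (SD, n = 3; log2 -1.45 ± 0.06, SE, edgeR adjusted p = 3.29e-07). PGM3, a mutase of the same pathway, fell from 143 to 104 CPM (-0.46 ± 0.09). The pyrophosphorylase UAP1, which makes the UDP-linked sugar, and its paralog UAP1L1 rose by 0.47 ± 0.09 and 1.56 ± 0.18. With summed libraries PGM3 and UAP1 did not pass (edgeR adjusted p = 0.0622 and 0.0909). UGP2, which makes UDP-glucose, and GNE, which starts sialic acid synthesis, rose by 0.57 ± 0.08 and 0.67 ± 0.11.

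Most enzymes that start other kinds of O-glycan did not pass. Of 16 tested, 2 rose, 3 fell and 11 did not pass (31.2% called, beside 60.0% of all genes), with a median of 0.06. With library totals 1 was higher and 6 were lower, beside 2391 higher and 4564 lower of all 11205 genes. COLGALT2, which glycosylates collagen, fell from 75.8 to 16.7 CPM (-2.17 ± 0.10), and the O-fucosyltransferase POFUT2 and the O-glucosyltransferase POGLUT1 fell by 1.04 and 0.68 on the log2 scale. OGT, which places GlcNAc on cytosolic and nuclear proteins, rose from 128 to 197 CPM (0.62 ± 0.08, edgeR adjusted p = 1.68e-04). KDELC2, an O-glucosyltransferase, rose by 0.34 ± 0.08, which did not pass when the library left out was wild-type replicate 1 (0.31, edgeR adjusted p = 0.0847) or wild-type replicate 2 (0.37, adjusted p = 0.0512) or with library totals (0.12, adjusted p = 0.225), thinned counts (0.33, adjusted p = 0.0953) or summed libraries (0.34, adjusted p = 0.236). In a fit that left out knockout replicate 2, 10 of the 16 passed, beside 73.3% of all genes in that fit.

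Proteins known to carry O-GalNAc chains moved both ways. Of 25 listed, 15 were tested, of which 4 rose, 7 fell and 4 did not pass (73.3% called, beside 60.0% of all genes, median -0.16). With library totals 2 were higher and 7 lower, beside 2391 higher and 4564 lower of all 11205 genes. DAG1, the dystroglycan gene, rose from 77.9 to 141 CPM (0.85 ± 0.12, SE, edgeR adjusted p = 2.49e-04). APP and PODXL2 rose by 0.31 ± 0.06 and 0.30 ± 0.09. APP did not pass when wild-type replicate 2 was left out (0.29, edgeR adjusted p = 0.05003), with library totals (0.09, adjusted p = 0.225) or with summed libraries (0.33, adjusted p = 0.156). PODXL2 did not pass when the library left out was wild-type replicate 1 (0.26, adjusted p = 0.163), wild-type replicate 2 (0.34, adjusted p = 0.0846) or knockout replicate 3 (0.28, adjusted p = 0.0895) and in 7 further alternatives, with library totals the farthest off (0.08, adjusted p = 0.475). The membrane mucin MUC4 had 57 and 51 wild-type counts against 15, 5 and 21 for the knockout libraries, or 9.68 and 0.524 CPM on the means. It is among the 7 counted as falling, though it passed the count filter through wild type alone. CD55, LRP1 and GYPC fell by 1.87, 2.09 and 0.90 on the log2 scale. The mucins MUC1, MUC12, MUC13 and MUC20 had at most 6 counts in any library and were not tested. Without wild-type replicate 2 fewer genes of the list passed, as fewer of all genes did.

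The list of Golgi tethering and retrieval genes had a median of 0.03. Of 18 tested, 4 rose, 6 fell and 8 did not pass (55.6% called, beside 60.0% of all genes). With library totals 1 was higher and 7 were lower, beside 2391 higher and 4564 lower of all 11205 genes. Within the COG tethering complex, COG4 fell from 187 to 98.8 CPM (-0.92 ± 0.10, SE), and COG5, COG7 and COG2 fell by 0.84, 0.54 and 0.54 on the log2 scale. COG1 rose by 0.44 ± 0.12, which did not pass when wild-type replicate 2 was left out (0.32, edgeR adjusted p = 0.146), with library totals (0.22, adjusted p = 0.158), with thinned counts (0.45, adjusted p = 0.0793) or with summed libraries (0.48, adjusted p = 0.110). GOLPH3L, the KDEL receptor KDELR1 and TMEM165 rose by 0.59, 0.48 and 0.37, respectively. GOLPH3L did not pass with thinned counts (0.37, edgeR adjusted p = 0.180) or summed libraries (0.56, adjusted p = 0.0537), nor KDELR1 with library totals (0.27, adjusted p = 0.0512). TMEM165 did not pass without wild-type replicate 2 (0.33, edgeR adjusted p = 0.0763), with library totals (0.16, adjusted p = 0.149), thinned counts (0.15, adjusted p = 0.385) or summed libraries (0.38, adjusted p = 0.182). COG7 did not pass with summed libraries (-0.52, edgeR adjusted p = 0.0589).

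**Figure D5:**
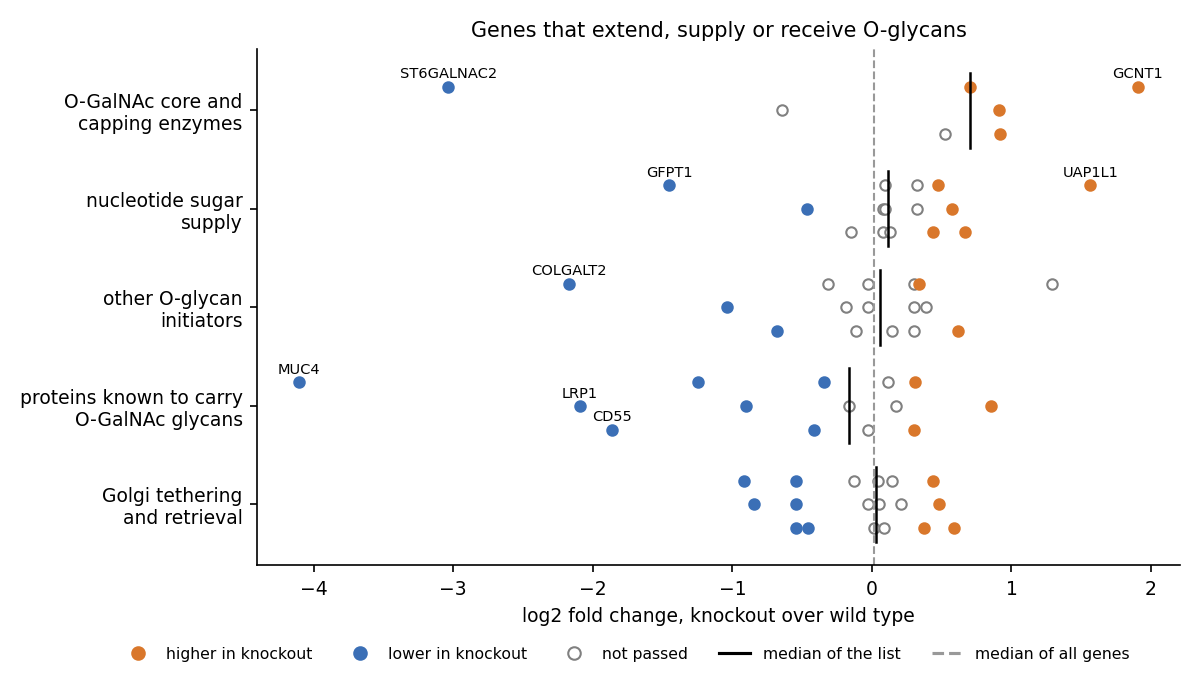
Log2 fold change of knockout over wild type for each tested gene of 5 lists that surround the GALNT step, with a point for each gene reported and a bar at the median of all tested genes of the list. Medians run from -0.16 for the carrier proteins to 0.71 for the core and capping enzymes, and single genes from MUC4 at -4.10 to GCNT1 at 1.91.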

How the data were processed

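Ribosome footprints of 5 libraries were sequenced, and the deposited table holds raw whole-number counts per transcript, as its values show. Per the labels' protocols, lysates with cycloheximide were digested with RNase I and footprints of 28 to 32 nt were cloned. Bowtie and hg38 are named in the submitters' processing notes, while no source used here names the counter, annotation, strand setting or treatment of duplicates and multi-mapped reads. The header stands 1 cell to the left of its values, and columns were matched to libraries by name after undoing this. Transcripts were matched to GENCODE release 29 (13533 of 13638 rows placed).

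Counts were fitted with edgeR 4.0.16 in R 4.3.3 (TMM, filterByExpr at min.count 10, then glmQLFit and glmQLFTest, genotype only, all 5 libraries, Benjamini-Hochberg over 11205 rows). SE is the fold change divided by the square root of F. Intervals are exact at 95%, with a floor of 3 counts for a count of 0, and cover counting error only. The labels do not say that libraries came from separate cultures, so the spread behind each p-value may be technical. Members and lists were chosen with earlier results of these data known. Named were the members, other GALNT rows, ZCCHC4, up to 4 called genes per direction of each list, C1GALT1 and C1GALT1C1, 3 rows on each side of GALNT5 and the 5 nearest patterns. Some list genes enter the counts and medians but are not reported here by name. Alternatives were other scalings, filters and tests (DESeq2 1.42.0), thinned or summed libraries, each library left out, a replicate block and whole transcript length.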

Additional observations from a re-analysis of the deposited data

How the results depend on the processing

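No named gene changed direction under any of the alternatives tried. GALNT5, whose values chose the family, is left out of the refits counted next. Of 98 refits of the 7 tested paralogs, 80 kept their side of the threshold, 8 lost the call and 10 gained it, and of 722 refits of the 52 named genes 642, 61 and 19 did so. Counts of GALNT members below include GALNT5, from which nothing is read. With counts thinned to the smallest library, 4111 genes passed in place of 6721, or 39.4% in place of 60.0%. The calls were then 3 of 8 GALNT members, 2 of 7 core and capping enzymes and 6 of 18 Golgi genes. With closely alike libraries summed, fewer of all genes passed, and fewer GALNT members, sugar supply genes, carrier proteins and Golgi genes did. At a mean count of at least 50, 3 of 5 core and capping enzymes passed, beside 60.1% of all genes. With no filter on low counts 8 of 17 other initiators passed, beside 51.7% of all genes. With each library left out in turn, calls ranged from 4698 to 8176 over all genes, from 3 to 8 for the members, from 3 to 5 for core and capping enzymes, from 4 to 10 for other initiators, from 7 to 11 for carrier proteins, from 7 to 14 for Golgi genes and from 7 to 8 for sugar supply. The share of GALNT5 in the knockout was 36.3% with whole transcript length in place of 35.0%.

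The labels give replicate numbers 1 and 2 to both genotypes. Deviations of same-numbered libraries had r = -0.05 for each pair across genes, which are not independent. Because the wild-type libraries differed by little more than sampling noise, this r cannot decide whether the numbers pair libraries. With the replicate block 6094 genes (54.4%) passed, and 4 of the 7 GALNT paralogs. Only the knockout has a replicate 3, so that library adds nothing to the genotype contrast in this fit. KDELC2 (adjusted p = 0.0551), PODXL2 (0.138) and GPD2 (0.0601) lost their call and GALNT13 (0.0353) gained one in edgeR. GALNT13 stood at -0.58 with the block and also without knockout replicate 3. Depth limits GALNT3, GALNT4, GALNT8 and GALNTL6, whose wild-type counts did not exceed 5 in a library.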
